A study of Mus musculus with 3 samples.

Results

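In the small RNA library cut from a polyacrylamide gel at 19 to 30 nt, 313389 of 943811 reads of 36 nt (33.2%, 95% Wilson interval 33.1 to 33.3%) held no recognisable 3' linker. The linker is the synthetic oligonucleotide ligated to the 3' end of each RNA, and the base at which it starts gives the length of the insert. It was searched for with an overlap of at least 6 bases and up to 20% mismatches, so that a read without it would be expected to come from an RNA of 31 nt or longer. These reads were compared with the 438632 sized inserts of 18 to 30 nt (46.5% of the same library). A further 101858 reads (10.8%) were linker alone and 89932 (9.53%) held inserts under 18 nt. The whole series holds 3192859 reads.

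The RNA came from fully grown mouse oocytes, the large egg cells of the ovary that have finished growth but not yet resumed meiosis. The mice were primed with PMSG (5 IU, 48 h before they were killed), a hormone that makes follicles grow. Total RNA was extracted with Trizol and cut from the gel in windows of 19-24, 24-30 and 19-30 nt, with 1 library for each window. Neither strain nor age is stated in the labels. With a single library there was no replicate, and all intervals given here cover counting error only.

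Mouse oocytes make 3 main kinds of regulatory small RNA. MicroRNAs are cut from hairpins by Dicer and recognise targets through their seed. Endogenous siRNAs are cut by Dicer from long double strands, many formed between a gene and its pseudogene or an inverted repeat, and so come from both strands. piRNAs are longer, bind PIWI proteins, mostly begin with U and often derive from transposons. Fragments of tRNA, rRNA and snoRNA are found beside these, and the 5' fragments of cleaved tRNA are typically longer than all of these.

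Reads of known microRNAs show what became of the linker. The linker, as it was read in 25693 copies of the most frequent read, and the most frequent reads of 2 microRNAs of 22 nt follow. The lower case letters are the insert and the linker bases read correctly, and capitals mark linker bases that differ from the linker.

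linker: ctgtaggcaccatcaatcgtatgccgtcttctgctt

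let-7a-5p, sized (354 reads): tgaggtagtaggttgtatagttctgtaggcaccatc

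let-7a-5p, no linker found (10 reads): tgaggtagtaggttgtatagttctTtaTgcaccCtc

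let-7a-5p, no linker found (7 reads): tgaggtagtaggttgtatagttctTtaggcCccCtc

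miR-294-3p, sized (167 reads): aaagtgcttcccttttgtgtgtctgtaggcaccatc

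miR-294-3p, no linker found (13 reads): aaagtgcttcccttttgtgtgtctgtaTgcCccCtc

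In each of the unsized reads the insert ended at base 22 and 3 of the 14 linker bases after it were misread, which is 1 more than the search allowed there. Such reads are inserts of ordinary length whose linker was missed.

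The 313389 reads were divided into the groups below, each read counted once in the order given. An uncalled base or low complexity set aside 2415 reads (0.771%). The most frequent inserts of 19 and 17 nt and their near copies were taken to be synthetic size markers, which run beside the RNA on the gel. They took 31895 reads (10.2%). Another 26491 reads (8.45%) were like the most frequent 28 nt insert of the library, which by general knowledge is a fragment of a bacterial tRNA and not of mouse. Of the rest, 47138 (15.04%) matched an annotated transcript over their first 20 nt and had their best end at 20 to 30 nt. The best end is the base at which a read passes from transcript to linker with the fewest mismatches over bases 21 to 36. No limit on mismatches was set for the ends at 20 to 30 nt. Matched reads with a best end at 31 nt or later numbered 6033 (1.93%), of which 2784 (0.888%) had at most 4 mismatches. Only 92 reads had more than 1000 places. Reads without a match made up 199325 (63.6%): in 118854 (37.9%) a poorly read linker was seen, and in 80471 (25.7%) none was.

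**Figure D1:**
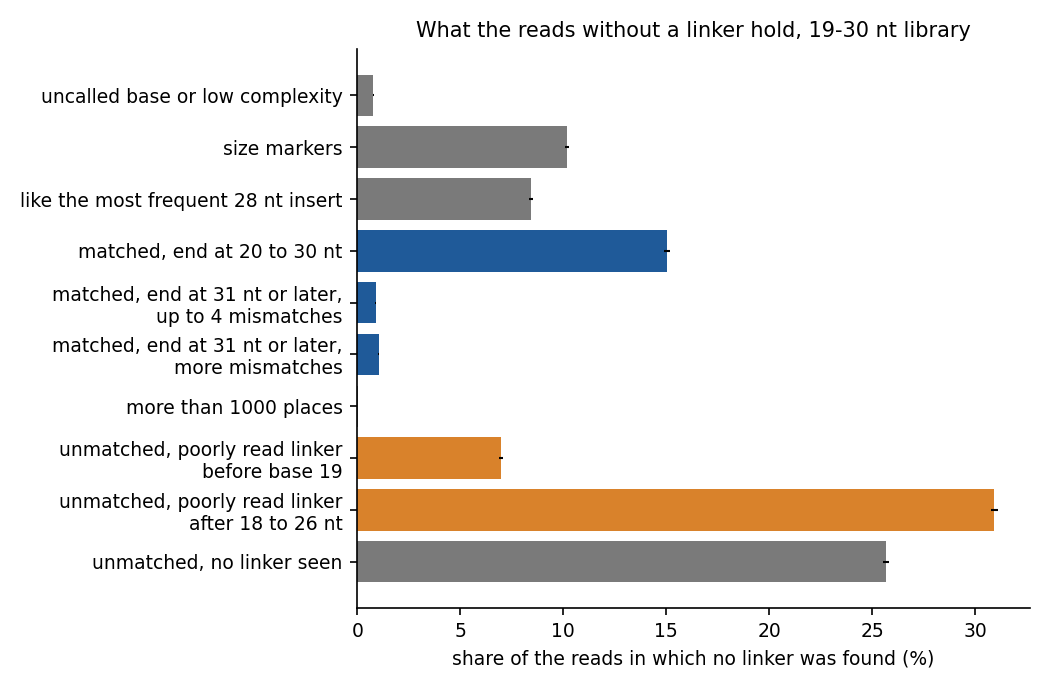
Share (%) of the 313389 reads without a linker that fell into each group, with 95% Wilson intervals. Blue bars are reads matched to a transcript, orange bars unmatched reads with a poorly read linker, and grey bars all others. The orange bar of inserts of 18 to 26 nt is the longest at 30.9%, while matched reads that end at 31 nt or later with up to 4 mismatches make up 0.888%.

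Markers, the 28 nt family, matched reads that end by 30 nt and reads with a poorly read linker together made up 71.6% of the reads without a linker. The matched reads among these were counted at any number of mismatches. A poorly read linker was defined as at least 10 bases with up to 40% mismatches, and it was present in 186214 of 310974 usable reads (59.9%, 59.7 to 60.1%). Among matched reads whose tail left the transcript it was present in 73.4%. It was present in 17 of the 591 reads whose bases 21 to 36 followed the transcript (2.88%, 1.80 to 4.56%). Those reads were chosen for tails close to the transcript, which leaves little room for a linker. Their share is therefore not a background for poorly read tails, for which none was measured. With up to 30% mismatches it was present in 38.4% of usable reads, against 1.35% of those that followed the transcript.

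Few reads ran on along a transcript to their end. Of 53222 matched reads without a linker, 591 (1.11%, 1.02 to 1.20%) followed the transcript over bases 21 to 36 with up to 3 mismatches, and 40 did so with at most 1. Best ends lay at 20 to 30 nt in 88.7% and at 31 nt or later in 11.3%, at any number of mismatches. With up to 4 mismatches the shares were 50.3% and 5.23% of the matched reads. Of the fits with up to 4 mismatches, 9.42% ended at 31 nt or later. The most frequent best end was 22 nt, the length of most microRNAs and siRNAs, in 35.2% of the matched reads without a linker, and 35.2% of the sized matched inserts were of that length. At 21 nt the shares were 13.0% and 22.5%, and at 23 nt 17.7% and 17.9%. Placed on sized reads, the best end fell where the linker search had put it in 99.9% of them. Those reads were chosen by a linker read within the allowed mismatches. The 99.9% therefore does not measure how exact the best ends of unsized reads are.

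**Figure D2:**
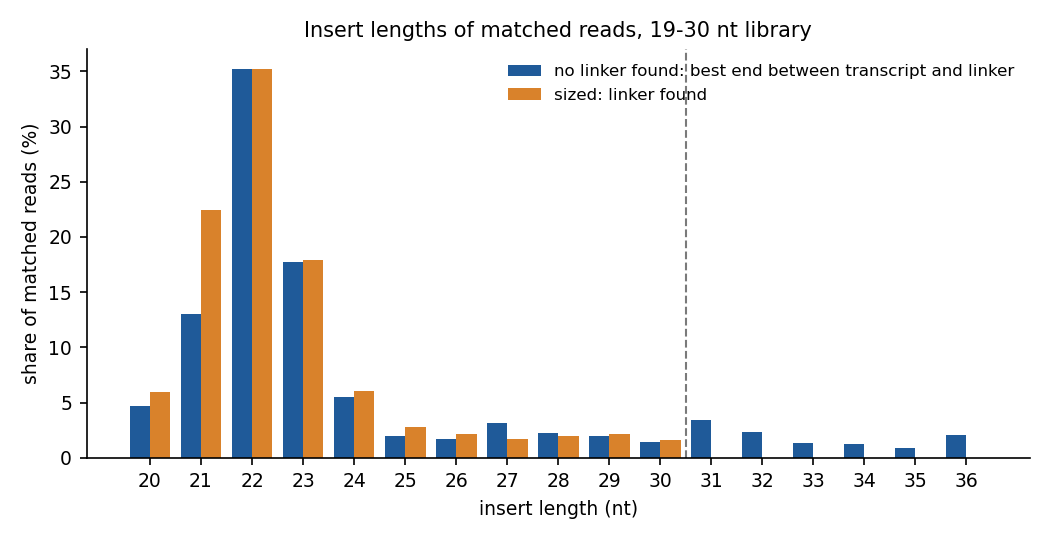
Share (%) of matched reads at each insert length (nt): the best end between transcript and linker for reads without a linker (blue) and the linker position for sized reads (orange). The dashed line marks the longest insert that could be sized. Both sets peak at 22 nt with 35.2%, and the blue bars go on from 31 to 36 nt at 3.44% or less.

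Across lengths, the share of matched reads in which no linker was found rose most from 21 to 22 nt and from 26 to 27 nt. It was 17.7% (17.4 to 18.1%) at 21 nt and 27.2% (26.8 to 27.5%) at 22 nt. It was 22.5% (21.2 to 23.8%) at 26 nt and 40.6% (39.2 to 42.1%) at 27 nt. The search allowed 3 mismatches up to 21 nt, 2 from 22 nt and 1 from 27 nt, since fewer linker bases are left to read. Within each range the share was highest at 20, 22 and 27 nt. At 29 and 30 nt the share was 24.8% and 24.3%, below that at 22 nt, although fewer mismatches were allowed. The part of the mismatch limit in these shares was not tested.

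**Figure D3:**
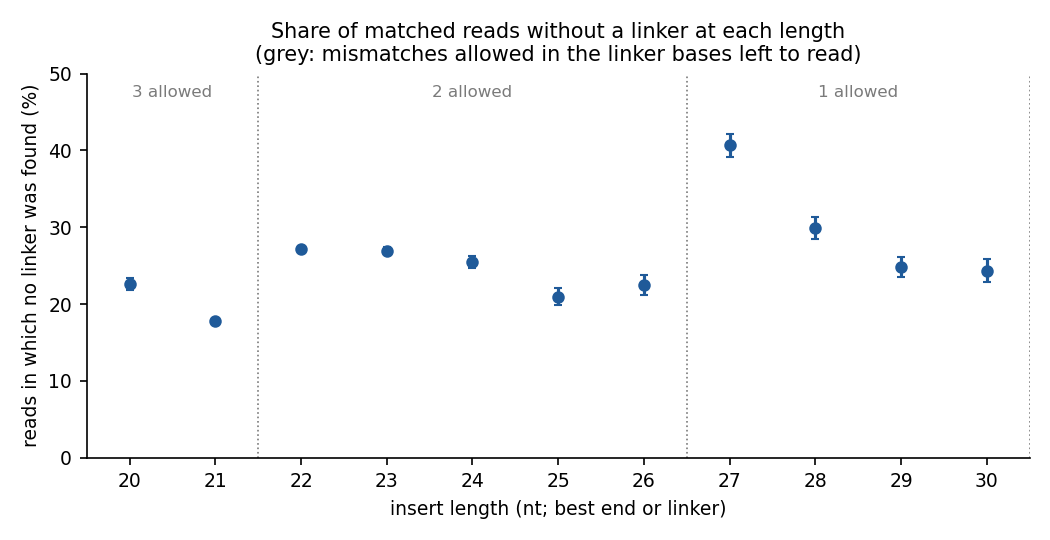
Share (%) of matched reads in which no linker was found, by insert length (nt), with 95% Wilson intervals. Grey text gives the mismatches allowed in the linker at each length, and the share is higher just after each dotted line: 27.2% at 22 nt and 40.6% at 27 nt.

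The 19 nt size marker, whose length was taken from reads with a linker, gave the misreading of the linker from sized and unsized reads together. Its linker was not found in 5980 of 34613 reads (17.3%). Behind it, linker bases that are A were misread in 28.4% of reads, with 78.4% of these errors called C, while G was misread in 9.51%, C in 4.24% and T in 3.18%. The worst base was the A read in cycle 31, wrong in 36.2%. The mean base quality, as the file gives it on a scale up to 40, in cycles 21 to 36 was 11.02 in reads without a linker and 19.3 in sized reads, and in cycles 1 to 20 it was 26.7 and 33.6.

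The first 20 nt matched a GENCODE M21 transcript perfectly in 53222 of 310974 usable reads without a linker (17.1%, 16.98 to 17.2%). Of the sized inserts, 146729 of 438137 (33.5%, 33.3 to 33.6%) did so, where inserts shorter than 20 nt were matched whole. Reads without a match had a mean quality of 25.8 in cycles 1 to 20 and matched ones 31.3. The sets also differ by design, since sized inserts had a lower length limit and reads without a linker had none. Among the latter, 21884 unmatched reads held a poorly read linker before base 19. Their first 20 nt thus include linker bases. How much of the lower matched share comes from such short inserts or from misread bases was not tested.

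The matched reads without a linker fell into nearly the same classes as the sized inserts. MicroRNAs took 17.3% (17.01 to 17.7%) against 17.2%, coding exons in sense 21.8% against 22.9%, and long non-coding RNA in sense 17.05% against 17.8%. Coding exons in antisense took 19.7% against 17.1%, a ratio of 1.15. The place that held more reads ending at 31 nt or later than any other is called the most frequent place below. Without it, coding exons in antisense took 16.6% (16.3 to 16.9%) against 16.9% (16.7 to 17.1%), a ratio of 0.983. The ratio was 0.965 with the first 25 nt matched and 0.997 with each distinct sequence counted once, so its direction turned in all 3. Ribosomal RNA stood at 0.444% against 0.296% and snRNA with snoRNA at 0.545% against 0.684%. In reads whose best end lay at 20 to 30 nt, coding antisense stood at 17.1%, as in the sized inserts.

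Of matched reads outside small RNA genes, 54.4% (53.9 to 54.8%) lay on the annotated strand, against 57.6% (57.3 to 57.8%) of sized inserts. Without the most frequent place the shares were 56.99% (56.5 to 57.5%) and 57.7% (57.5 to 58.02%), a difference of -0.75 percentage points in place of -3.18. The share was 57.2% in the reads that ended by 30 nt. The first base was U in 65.3% (64.9 to 65.7%) of matched reads without a linker and in 61.6% (61.4 to 61.9%) of matched sized inserts. In the reads that ended by 30 nt it was U in 63.5%. Before matching the order was the other way, with U first in 43.9% of usable reads without a linker and 46.3% of sized ones. G came first in 22.7% and 17.8%.

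The microRNAs are shown next because their true ends are known. RefSeq (GRCm38.p6) gave the mature sequences of the 32 with at least 200 reads, and 5 of them are printed with the seed, bases 2 to 8, in capitals. They are a pair with one seed, 2 others that are mostly 22 nt long, and the microRNA with the lowest share.

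miR-294-3p: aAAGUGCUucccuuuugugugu

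miR-295-3p: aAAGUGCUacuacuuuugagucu

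miR-22-3p: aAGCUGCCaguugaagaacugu

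miR-322-5p: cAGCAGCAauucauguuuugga

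miR-182-5p: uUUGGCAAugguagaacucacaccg

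Reads that began with the first 20 nt of a mature microRNA lacked a linker in 8522 of 31569 cases (27.0%), beside 26.6% of all matched reads. Over the 32 microRNAs the share ran from 10.3% to 43.5%, with a median of 26.8%. The highest was miR-294-3p (chromosome 7, 3220691 to 3220712, + strand), of the microRNA cluster of early embryos and embryonic stem cells, with 528 of 1215 reads (43.5%, 40.7 to 46.3%). Its neighbour miR-295-3p, with the same seed, lacked a linker in 54 of 219 reads (24.7%, 19.4 to 30.8%). The lowest was miR-182-5p (chromosome 6, 30165962 to 30165986, - strand), of the miR-183 cluster, with 27 of 262 reads (10.3%, 7.18 to 14.6%).

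Of the sized reads of miR-294-3p 98.4% were 22 nt long, and of those of miR-22-3p 97.5%. MiR-22-3p (chromosome 11, 75463772 to 75463793, + strand) lacked a linker in 22.1% (20.2 to 24.1%). For miR-322-5p (X chromosome, 53054306 to 53054327, - strand), with 86.2% of sized reads at 22 nt, the share was 16.4% (12.4 to 21.2%). The intervals of miR-294-3p and both others do not overlap. However, miR-92a-3p, with 92.5% of sized reads at 22 nt, lacked a linker in 39.5% (34.2 to 45.0%). Its interval overlaps that of miR-294-3p. The mean quality in cycles 21 to 36 was 20.2 for miR-294-3p, 21.3 for miR-22-3p and 19.8 for miR-322-5p. Across the 32, that quality and the share without a linker had a Spearman correlation of -0.49, as a description of microRNAs that share this library. The lowest qualities were 15.6 for miR-652-3p, where 42.4% lacked a linker, and 16.5 for miR-92a-3p, where 39.5% did. Quality was 21.2 for miR-182-5p, where 10.3% lacked one. The part of quality in these shares was not tested. Across the same 32, the share of sized reads at 20 or 21 nt and the share without a linker had a Spearman correlation of -0.07. Of the 7 let-7 members among them, which carry the seed GAGGUAG, let-7d-5p had the lowest share (19.0%) and let-7b-5p the highest (35.1%). Nearly all reads of microRNAs without a linker had a best end of 20 to 30 nt: 525 of 528 for miR-294-3p and 439 of 454 for let-7a-5p.

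Gene levels were compared as reads scaled to 1000000 matched reads (RPM) in each set. Of 695 genes with at least 50 reads in both sets together, 87.8% had RPM within 1.5-fold of each other, with a median ratio of 0.955 (no linker over sized) and a 5th to 95th percentile range of 0.593 to 1.42. Of the top 100 genes of each set, 89 were shared. A ratio of 2 or more was found for 9 genes (1.29%) and of 0.5 or less for 18 (2.59%). Of the 9, 8 were 4 microRNA hairpins, Mettl26, mt-Tp and the long non-coding RNA genes Gm48508 (31.1 and 33.4 weighted reads, 2.57, 1.52 to 4.31) and Dubr (29.0 and 39.6, 2.02, 1.20 to 3.34). The 18 were 13 hairpins, the mitochondrial genes mt-Ts2, mt-Te and mt-Rnr2, Egfl7 with the reads of its hairpin Mir126a, and the pseudogene Gm6018.

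**Figure D4:**
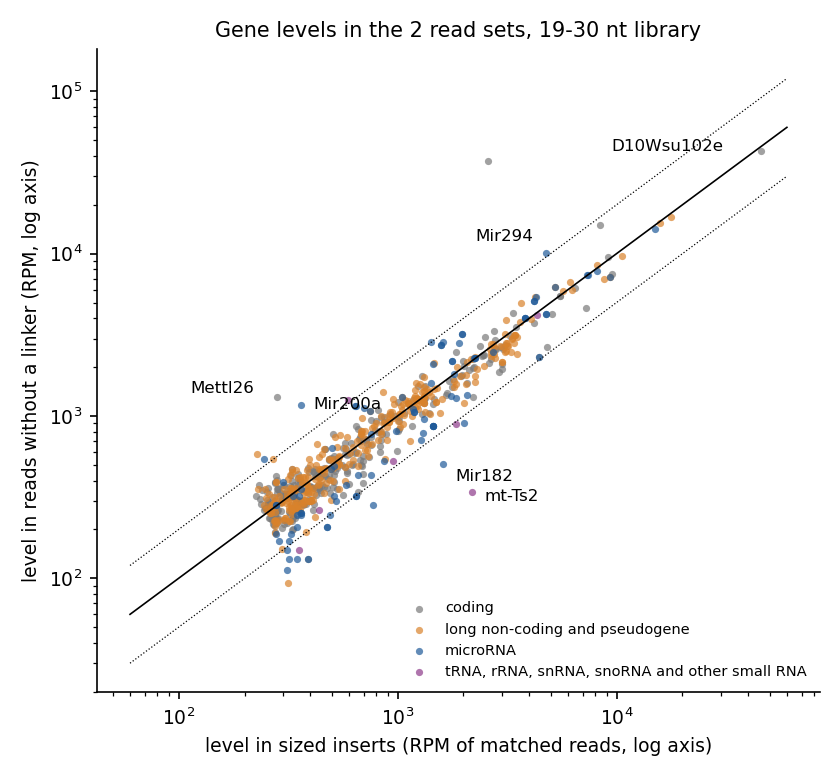
Level of each of the 695 genes with at least 50 reads in the sized inserts (x axis) and in the reads without a linker (y axis), in RPM on log axes. The solid line marks equal levels and the dotted lines a 2-fold difference. Most genes lie along the line, with Mettl26 and Mir200a above the upper dotted line and mt-Ts2 farthest below.

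Several leading genes stood at similar levels in both sets. D10Wsu102e, a coding gene with reads on both strands, was first in both sets, with 2268 reads without a linker (42608 RPM) and 6732 sized (45877 RPM). The hairpin Mir20a, within the Mir17hg transcript that carries the miR-17 to miR-92 cluster, had 753 and 2188 reads, a ratio of 0.949 (0.872 to 1.03). The processed pseudogene Gm7162 on chromosome 17 had 819 and 2312, a ratio of 0.977 (0.901 to 1.06). Others moved in rank: Nlrp12 was the 5th gene without a linker and the 11th sized, Mir294 the 7th and the 27th, and Mir22 the 15th and the 8th. Among the 15 leading genes, hosts and their hairpins share reads, as Mir20a and Mir17hg do, and Tlcd2 (ratio 0.784) with Mir22 (0.774).

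Of the 8 known sources of oocyte siRNA, 6 had at least 50 reads. None of the 6 had a ratio of 2 or more or of 0.5 or less, which few of all genes had (1.29% and 2.59%). Their median ratio was 0.962, beside 0.955 over all genes. Optn, an autophagy receptor gene, had 229 and 495 reads (ratio 1.28, 1.09 to 1.496). Pdzd11, with 126 and 362 (0.960), and Ppp4r1, with 85 and 306 (0.767), lay on the other side of 1. Antisense reads of the 8 numbered 246 and 759. Pdzd11 and Kif4, both among the 6, overlap on opposite strands and share nearly all reads. The antisense reads of Pdzd11 (93 and 228) are thus nearly all sense reads of Kif4 (94 and 229), and the reverse. The antisense totals and the median ratio count this locus for both genes. Among marker genes, the 43 oocyte mRNAs gave 223 sense reads without a linker and 538 sized, most of them of Oog4 (156 and 342) and Dppa5a (36.95 and 112). The 21 granulosa and cumulus genes gave 0.337 and 3.05 weighted reads and the 8 blood genes under 1. Small RNA reads do not measure mRNA levels, so these counts cannot tell whether other tissue was present.

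Over 91 microRNA hairpins with at least 50 reads, 4 had a ratio of 2 or more and 13 of 0.5 or less, with a median ratio of 0.901. Over all 695 genes, 9 (1.29%) and 18 (2.59%) had such ratios. Some of the 13 had equal levels in both sets and are not separate: Mir218-1 with Mir218-2 (207 and 477 RPM), and Mir191 with Gm24083 (319 and 647 RPM). The 4 high ones were Mir200a with 62 and 53 reads (3.23, 2.20 to 4.74), Mir328 with 29 and 36 (2.22, 1.31 to 3.73), Mir294 with 536 and 697 (2.12, 1.89 to 2.38), and Mir652 with 2837 and 1418 RPM, named after its values were seen because it completes the 4. Nlrp12, an innate immune gene whose opposite strand spans Mir294, had 802 and 1228 reads in antisense (1.80). With 30% mismatches allowed in the linker, the ratio of Mir294 was 1.06. The low ones included Mir182 with 27 and 237 reads (0.314), Mir126a with 7 and 57 (0.339, the reads of its host Egfl7), and Mir335 with 15 and 113 (0.366).

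Some fragments of structural RNA were longer than the sized range. The reads that carry this finding are printed with the start of the linker in capitals.

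5' end of mt-Tp, 31 nt (5 reads): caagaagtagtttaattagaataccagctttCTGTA

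5' end of tRNA-Gly-GCC, 32 nt (146 reads): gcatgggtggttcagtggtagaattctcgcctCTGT

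3' end of 5.8S rRNA, 33 nt (1465 reads): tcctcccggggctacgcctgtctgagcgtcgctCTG

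In each the linker begins 3 to 5 bases before the end of the read, too late to be found with an overlap of 6.

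The mitochondrial tRNA for proline, mt-Tp (M, 15356 to 15422, - strand), had 67 reads without a linker and 87 sized (2.12-fold, 1.52 to 2.95), and 48 of the 67 ended at 31 nt or later with up to 4 mismatches, starting mostly at the 5' end of the tRNA. The ratio of mt-Tp was 1.16 with a linker overlap of 4 bases, 3.67 with 8, and 4.63 with 30% mismatches. Mettl26 had 70 and 41.5 (4.65-fold, 3.12 to 7.005), all but 1 of the 70 at 1 place, chromosome 17 at base 25875088, where RefSeq lists the tRNA gene n-TGccc7. Its ratio was 2.77 with each distinct sequence once, 3.096 with 25 nt matched and 10.1 with an overlap of 8. There 31 of 37 long reads ended at 32 nt. The mitochondrial tRNA for methionine, mt-Tm, had 15 reads without a linker and 11 sized (3.76-fold, 1.61 to 9.05), 10 of the 15 ending at 31 nt or later. By contrast mt-Ts2, the mitochondrial tRNA for serine without a D arm, had 18 and 322 (0.154, 0.0902 to 0.248), the lowest ratio of all 695 genes, and 4 of its 18 ended at 31 nt or later. The large mitochondrial rRNA, mt-Rnr2, had 47.5 and 271 weighted reads (0.484) and none that ended at 31 nt or later.

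The 80471 unmatched reads in which no linker was seen were led by a sequence that is, by general knowledge, the 3' end of 5.8S rRNA. Its first 20 nt opened 4730 reads without a linker and 1 sized read, and 145606 reads of the 24-30 nt library (98084 per 1000000) against 29 of the 19-24 nt library. Reads with the start of tRNA-Gly-GCC, named in the same way, numbered 952 without a linker and 177 sized, with 12327 in the 24-30 nt library (8304 per 1000000) and 122 in the 19-24 nt library (160 per 1000000). These fragments were printed above, and both end past 30 nt. Several of the other leading starts are bacterial tRNA by general knowledge.

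The 2784 matched reads that ended at 31 nt or later with up to 4 mismatches are the best candidates for RNA over 30 nt. They were well read, with a mean quality of 34.6 in cycles 1 to 20 and 20.3 in cycles 21 to 36. Of them 44.4% ended at 31 nt, 19.8% at 32 nt and 10.9% at 33 nt, and 13.9% reached the end of the read. They lay at 1403 places, 1135 of them with 1 read, and 633 reads (22.7%) came from the most frequent place. The classes are therefore given with and without that place.

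MicroRNAs made up 0.624% (0.392 to 0.992%) of these long reads. They made up 17.2% of all sized inserts and 4.37% of those of 25 to 30 nt. Transfer RNA made up 4.38% (3.68 to 5.21%) against 0.404% of all sized inserts, and snRNA with snoRNA 2.33% (1.84 to 2.96%) against 0.684%. Coding antisense stood at 35.4%, and at 16.3% (14.8 to 17.97%) without the most frequent place. Pseudogenes in antisense stood at 14.4% (12.9 to 15.9%) without it, against 6.71% of all sized inserts. Their share was not compared with that in sized inserts of 25 to 30 nt, so a difference that goes with length cannot be told apart. Box C/D snoRNA contributed 36 of its 133 reads without a linker to the long reads.

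**Figure D5:**
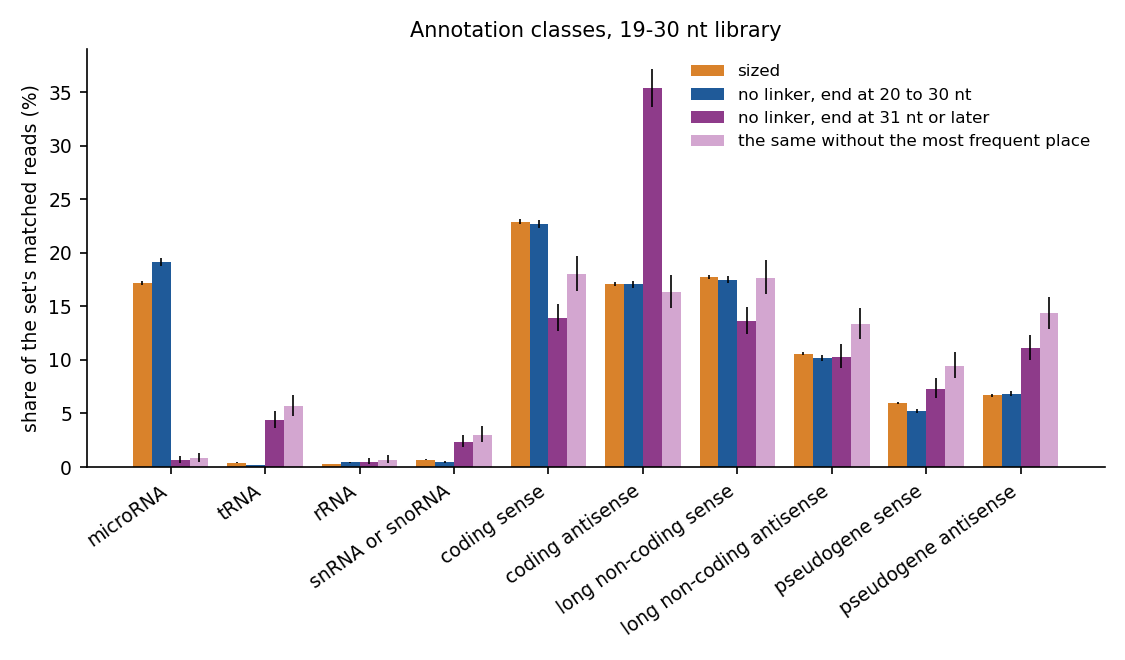
Share (%) of matched reads in each annotation class, with 95% Wilson intervals, for sized inserts (orange), reads without a linker that ended at 20 to 30 nt (blue) and at 31 nt or later (purple), and the last set without the most frequent place (light purple). MicroRNA falls from 17.2% in the orange bar to 0.624% in the purple one, and the tall purple bar of coding antisense, 35.4%, is 16.3% without that place. MicroRNA took 4.37% of the sized inserts of 25 to 30 nt, which are not drawn apart.

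The long reads outside small RNA genes lay on the annotated strand in 38.1%, and in 50.6% (48.4 to 52.9%) without the most frequent place. Sized inserts of 25 to 30 nt, the lengths next to them, did so in 51.2% (50.5 to 52.0%). The first base was U in 81.1% (79.3 to 82.8%) of these long reads without the most frequent place, and in 74.3% (73.6 to 75.0%) of the sized 25 to 30 nt inserts, both outside small RNA genes. A single place was found for 18.5% of the long reads without the most frequent place and for 22.3% of the sized 25 to 30 nt inserts, so that most reads of both sets had several places among annotated transcripts. Transfer RNA took 0.946% and snRNA with snoRNA 2.51% of the sized 25 to 30 nt inserts, beside 5.67% and 3.02% of the long reads without the most frequent place.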

How the data were processed

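Per the labels' protocols, adapters for Solexa sequencing were ligated to gel-cut RNA and the product was amplified. The authors deposited values of another kind than counts: single reads of 36 nt (26 nt for the 19-24 and 24-30 nt libraries) with a quality for each base, not trimmed of the linker. Aligner and genome build were not given in the sources used here, so reads were counted anew. The comparisons, planned without tests, stayed as they were.

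The linker was taken from the most frequent read. Usable reads had no uncalled base and passed a limit on low complexity (under 14 equal bases and at least 5 distinct trinucleotides). The first 20 nt (the whole insert at 18 or 19 nt) had to match a GENCODE M21 transcript perfectly on either strand. Each of several places got an equal weight, and reads with over 1000 were set aside. Without a genome, introns and intergenic sequence were not analysed here. RefSeq tRNA coordinates were added to the classes. Genes that share reads are uncertain. The most frequent place of the reads past 30 nt, and the gene there, which is the ninth of the genes with a ratio of 2 or more and has the highest ratio, are not reported here. The best end was the split of bases 21 to 36 between transcript and linker with the fewest mismatches, ties going to the longer insert. The code was tested on simulated reads of random sequence with errors spread evenly, and limits for passing were set only for reads without errors. The best ends of reads with a poorly read linker were not tested in this way. Python 3.11.15, NumPy 2.4.6, SciPy 1.17.1 and matplotlib 3.10.9 were used.

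Shares have Wilson, levels exact Poisson and ratios conditional binomial 95% intervals. Named genes were the 15 with most reads without a linker, the 5 leading genes of each class, and the 8 highest and 8 lowest ratios among genes with at least 50 reads; the text gives those that bear on a result and the rest by counts. The members, lists and rules were chosen with earlier results of these data known. The 40% limit for a poorly read linker, the best end and its limit of 4 mismatches, the checks on markers, quality and microRNAs, the sets without the most frequent place, the sized 25 to 30 nt set and the identified unmatched sequences were chosen after seeing the data. Alternatives changed the linker search, the matched length, the places and the counting of copies.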

Additional observations from a re-analysis of the deposited data

How the results depend on the processing

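The share of reads without a linker depended most on the mismatches allowed: 58.7% with 10%, 17.3% with 30%, and 32.2% and 34.7% with an overlap of 4 and 8 bases. The matched share was 16.9%, 18.04%, 18.5% and 15.5% with an overlap of 4 and 8 bases and mismatches of 10% and 30%, 21.6% and 1.80% over 18 and 25 nt, 17.7% counting distinct sequences once, and 5.999% for single places. The poorly read linker was present in 61.2% and 57.3% (overlap 4 and 8), 70.3% and 40.4% (mismatches 10% and 30%), 38.4% under its stricter limit, and 73.6% over at least 8 bases, a setting chosen after seeing the data. Over at least 8 bases it was also present in 11.3% of the reads that followed the transcript, against 2.88% over at least 10. Tails followed the transcript in 9.45% of reads matched over 25 nt, 0.445% of those with a single place, 0.0752% with up to 1 and 6.06% with up to 5 mismatches. The match over 18 nt was not run for the tails.

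In the comparison with sized inserts, given here in the order overlap 4, overlap 8, mismatches 10%, mismatches 30% and single places, the ratio of microRNA shares was 1.04, 0.881, 0.958, 0.817 and 0.888. That of coding antisense was 1.10, 1.18, 1.10, 1.36 and 1.77. The annotated strand differed by -2.39, -4.50, -2.14, -6.35 and -10.8 percentage points, and first U by 3.06, 5.72, 2.72, 5.801 and 5.82. Over 25 nt these 4 values were 2.43, 0.965, -0.35 and -1.001, so that coding antisense and first U turned direction. With each distinct sequence once, coding antisense also turned (0.997), microRNA was 4.39 and first U 9.59 points, where unsized reads count as distinct by their misread linkers too. In the 591 reads that follow the transcript the 4 values were 0.0126, 0.916, -11.2 and 16.4, the coding antisense ratio again turning. The median gene ratio was 0.981 and 0.926 with mismatches of 10% and 30%, 0.906 over 25 nt, 0.891 for distinct sequences, 0.857 for single places and 0.320 for reads that follow the transcript. Without the most frequent place, a setting chosen after seeing the data, the ratios of microRNA and coding antisense were 1.04 and 0.983 (direction turned), the differences in annotated strand and first U -0.75 and 2.39 points, and the median gene ratio 0.989. The cause of these changes was not tested. The ratio of mt-Tp was above 1 in all 10 alternatives (1.16 to 17.1), that of Mettl26 in all 10 (2.77 to 65.8) and that of Mir294 in all 8 that gave a value (1.06 to 40.8). The highest values of mt-Tp and Mettl26 came from reads that follow the transcript, a setting that favours long inserts by design. That of Mir294 came from distinct sequences, where misread linkers add to the unsized count. The next highest were 4.63, 10.1 and 2.21. All alternatives reuse the same library and are not independent.

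Without replicate libraries, differences between these read sets describe 1 library. No paired analysis was possible because each window has a single library.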
